A study of Mus musculus with 2 samples.

Results

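The fatty acid binding protein genes Fabp1 to Fabp7 were examined in intestine of mouse embryos at embryonic day 15.5. The members were taken by symbol, each from the Ensembl identifier without its version, and all 7 were found among 43346 Ensembl gene entries in both the gene and the transcript tables. The study holds 1 group of 2 total RNA libraries from healthy intestine of strain B6NCrl. Replicate 1 was a pool of 78 embryos and replicate 2 a pool of 62 embryos, each of both sexes. No treatment and no genetic change is labelled. With 1 group there is no contrast to test, so levels are compared between the paralogs and between the libraries, and n = 2 for every mean ± SD. A pool averages over many embryos and over the dissected intestine, so fewer cells of a type and less RNA per cell cannot be told apart.

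Fatty acid binding proteins are small cytosolic carriers that fold into a barrel and hold a long-chain fatty acid or a related lipid inside it. They take fatty acids from the plasma membrane to the endoplasmic reticulum, mitochondria and nucleus, where some deliver ligands to the peroxisome proliferator-activated receptors (PPARs). Each paralog is known for other cells. Fabp1 belongs to liver and intestinal absorptive cells, Fabp2 to intestinal absorptive cells, and Fabp6 binds bile acids in the ileum. Fabp3 is the carrier of heart and skeletal muscle, Fabp4 of fat cells, capillary endothelium and macrophages, Fabp5 of skin and many other tissues, and Fabp7 of glia and their precursors.

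The genes share a plan. The members were chosen by family name, so likeness between them is built into the choice. In GENCODE M21 the main coding transcript of each member (Fabp1-201 and so on) has 4 exons. The exon 2 part of the coding sequence is 173 bases in 6 members and 176 bases in Fabp6. The exon 3 part is 102 bases in Fabp3, Fabp4, Fabp5 and Fabp7, but 93 in Fabp1, 108 in Fabp2 and 90 in Fabp6. The coding part of exon 1 is 67 bases in the gut members Fabp1, Fabp2 and Fabp6, 73 in Fabp3, Fabp4 and Fabp7, and 79 in Fabp5. These exon 1 parts are shown from the start codon to the end of the exon, because they show which bases the paralogs share at the start of the protein. Capitals mark the 17 bases, of the last 67, that are identical in all 7 genes when counted back from the end of the exon.
Fabp1: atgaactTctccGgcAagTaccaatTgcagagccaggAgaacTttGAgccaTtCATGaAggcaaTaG
Fabp2: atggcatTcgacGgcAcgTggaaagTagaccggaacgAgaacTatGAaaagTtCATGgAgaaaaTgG
Fabp3: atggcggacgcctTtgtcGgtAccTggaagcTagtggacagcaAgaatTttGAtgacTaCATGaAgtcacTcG
Fabp4: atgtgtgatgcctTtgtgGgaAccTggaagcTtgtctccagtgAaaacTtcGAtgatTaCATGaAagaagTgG
Fabp5: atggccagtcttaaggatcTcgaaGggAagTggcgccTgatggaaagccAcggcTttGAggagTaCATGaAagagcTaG
Fabp6: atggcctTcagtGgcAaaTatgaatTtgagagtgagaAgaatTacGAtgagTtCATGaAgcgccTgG
Fabp7: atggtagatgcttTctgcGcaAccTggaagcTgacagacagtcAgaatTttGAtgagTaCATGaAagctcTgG
They lie on GRCm38 as follows: Fabp1 at chr6:71199927-71199993 (forward strand), Fabp2 at chr3:122895413-122895479 (forward strand), Fabp3 at chr4:130308778-130308850 (forward strand), Fabp4 at chr3:10208439-10208511 (reverse strand), Fabp5 at chr3:10012640-10012718 (forward strand), Fabp6 at chr11:43601445-43601511 (reverse strand), Fabp7 at chr10:57785009-57785081 (forward strand). Over the whole coding sequence, identity in 21 pairwise alignments ran from 47.6% (Fabp2 with Fabp4) to 66.4% (Fabp3 with Fabp7), with a median of 49.4%. Fabp1 was closest to Fabp6 (57.7%) and shared 48.3% with Fabp2, the paralog it is expressed beside.

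**Figure D1:**
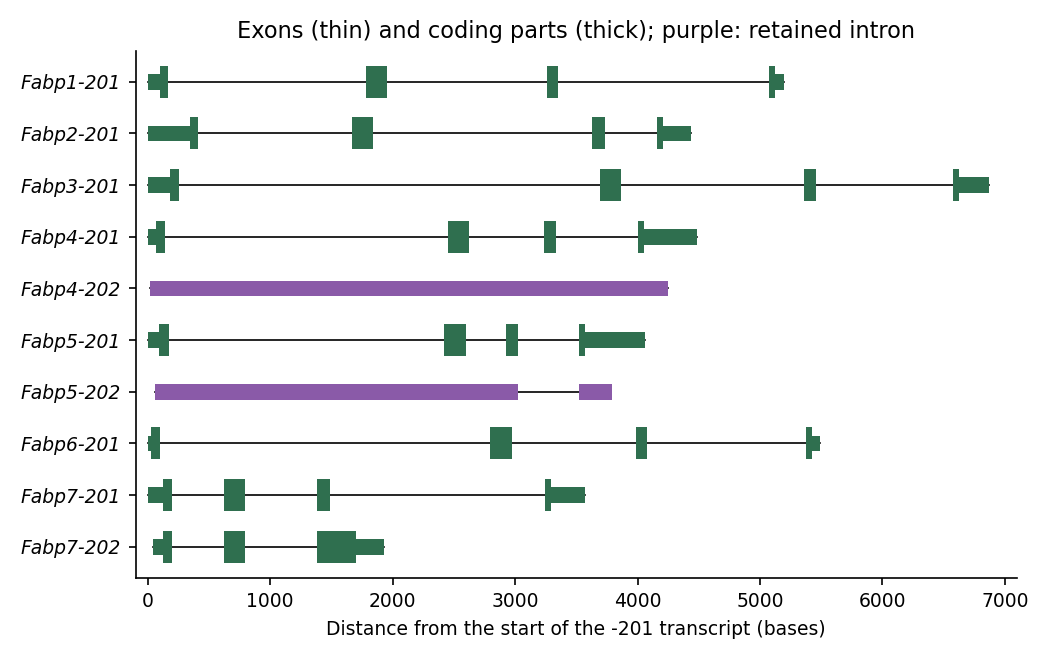
Exon models of the 10 transcripts of Fabp1 to Fabp7 (vertical axis), with distance in bases from the start of the main transcript (horizontal axis) and all genes drawn in the direction of transcription. Boxes are exons, taller boxes their coding parts and lines introns. Each main model has 4 exons, and the purple Fabp4-202 and Fabp5-202 models keep introns as exon.

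The promoters of Fabp1, Fabp2 and Fabp6 are shown because these 3 genes serve the same epithelium in the adult and stood far apart here. Each is the stretch up to 250 bases before the RefSeq start on GRCm38.p6, 5′ to 3′ in the direction of transcription: Fabp1 at chr6:71199629-71199826 on the forward strand, Fabp2 at chr3:122894822-122895071 on the forward strand and Fabp6 at chr11:43601563-43601812 on the reverse strand. For Fabp1 the last 52 bases are left out, since GENCODE counts them as exon. Capitals mark matches to the motifs listed next.
Fabp1: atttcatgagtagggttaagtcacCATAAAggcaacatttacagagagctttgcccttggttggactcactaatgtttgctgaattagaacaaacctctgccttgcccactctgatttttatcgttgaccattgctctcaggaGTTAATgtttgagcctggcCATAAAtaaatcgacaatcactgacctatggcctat
Fabp2: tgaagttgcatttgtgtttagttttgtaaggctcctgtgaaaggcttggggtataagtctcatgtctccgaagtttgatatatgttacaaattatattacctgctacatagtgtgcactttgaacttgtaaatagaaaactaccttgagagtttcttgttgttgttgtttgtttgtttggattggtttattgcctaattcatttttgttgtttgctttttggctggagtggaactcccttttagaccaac
Fabp6: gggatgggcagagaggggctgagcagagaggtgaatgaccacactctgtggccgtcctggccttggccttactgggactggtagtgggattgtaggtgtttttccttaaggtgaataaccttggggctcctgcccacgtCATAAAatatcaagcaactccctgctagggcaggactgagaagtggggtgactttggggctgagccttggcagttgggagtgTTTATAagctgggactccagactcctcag
A total of 7 motifs were searched on both strands of the 250 bases, and none of the matches overlapped another. The TATA box TATAAA occurs in 12.4% of 32851 RefSeq promoters of this length, the HNF1 half-site GTTAAT in 6.43%, the GATA element AGATAA in 9.99% and the CDX element TTTATG in 10.8%. The HNF4 element CAAAGTCCA occurs in 0.384%, the PPAR-RXR element (AGGTCA as a direct repeat with 1 base between) in 0.0335% and the FXR element (AGGTCA as an inverted repeat with 1 base between) in 0.00609%. Fabp1 held TATAAA (30 to 25 bases before the RefSeq start, in the stretch left out), GTTAAT (107 to 102 bases before it) and TTTATG on the opposite strand at 226 to 221 and 88 to 83 bases. Fabp6 held TATAAA on the opposite strand (29 to 24 bases) and TTTATG on the opposite strand (111 to 106 bases). Fabp2, Fabp3 and Fabp7 had no match to these letters, and the promoters of Fabp4 and Fabp5 were not analysed here. The Fabp2 stretch ends where its annotated first exon begins. That exon has 408 bases, of which only the last 67 are coding, and it was not searched. The lack of a match in Fabp2 therefore holds for the printed stretch only. A match is a description of letters only.

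The paralogs covered more than 3 orders of magnitude. TPM is the authors' estimate of transcript abundance, corrected for transcript length and scaled to the same total in each library. A gene was called detected where neither library fell under a TPM of 1, which 6 of the 7 members met, beside 34.6% of all Ensembl genes and 62.7% of protein-coding genes. A TPM limit of 10 was met in both libraries by 5 members, beside 20.7% of all and 40.1% of protein-coding genes. A limit of 100 was met by 3 members, beside 3.77% and 7.21%, and a limit of 1000 by 1 member, beside 0.251% and 0.424%. By mean TPM the order was Fabp1 at 2066 ± 208, Fabp2 at 612 ± 90.1, Fabp5 at 221 ± 27.9, Fabp4 at 91.7 ± 7.35, Fabp7 at 41.4 ± 6.02, Fabp3 at 4.64 ± 0.573 and Fabp6 at 1.01 ± 0.0354. The ranges of the 2 libraries did not overlap for any pair of neighbours. The smallest gap lay between Fabp4 and Fabp7, where the lowest Fabp4 value was 1.90 times the highest Fabp7 value. The 7 genes together stood at 3259 and 2816 TPM, which is 0.341% and 0.293% of the TPM of all Ensembl genes. Fabp1 made up 67.9% and 68.1% of that sum and Fabp2 20.7% and 19.5%.

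**Figure D2:**
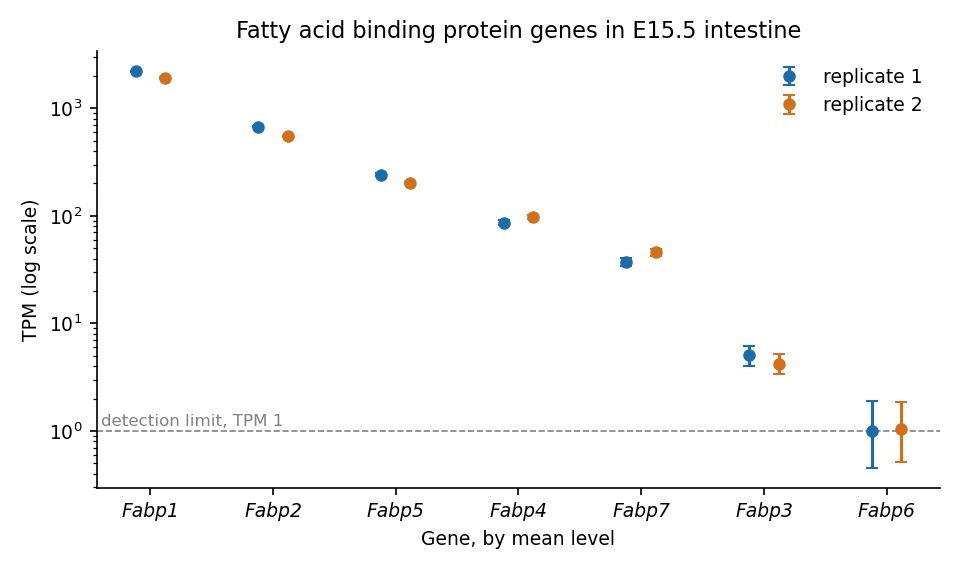
TPM on a log axis (vertical) of each member (horizontal, by mean level) in replicate 1 (blue) and replicate 2 (orange), with exact Poisson 95% intervals that cover counting error only. Fabp1 lies highest at 2213 and 1919, and the Fabp6 points lie on the detection limit at 0.99 and 1.04 with intervals that cross it.

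Fabp1, the carrier of liver and of absorptive cells (ENSMUSG00000054422.7, chromosome 6, 71199827 to 71205023), was at a TPM of 2213 in replicate 1 and 1919 in replicate 2, from 24074 and 24311 estimated counts. It ranked 23 among protein-coding genes. Fabp2, the carrier of intestinal absorptive cells (ENSMUSG00000023057.5, chromosome 3, 122895072 to 122899506), was at 676 and 548, from 14017 and 13246 counts, and ranked 212. Replicate 1 was the higher library for both. Within a library Fabp1 was 3.28 and 3.50 times Fabp2, a ratio that does not depend on how libraries are scaled.

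Genes listed here as enterocyte markers were abundant in the same libraries. All 8 enterocyte markers were detected, with a median of 353 TPM over their means. The highest were Lgals4, a galectin, at 1321 and 1235, the apolipoprotein gene Apoa1 at 1518 and 1258, and the adhesion gene Epcam at 653 and 669. Fabp1 was 1.68 and 1.55 times Lgals4 in the libraries and 3.39 and 2.87 times Epcam. Fabp2 was 0.511 and 0.444 times Lgals4 and 1.04 and 0.820 times Epcam. These ratios were lower in replicate 2, but that of Fabp1 to Apoa1, at 1.46 and 1.53, was higher there. Of 11 gut epithelial regulators, which include known activators of Fabp1 and Fabp2, all were detected. Elf3 led them at 177 and 175, followed by Klf5 at 95.4 and 105 and Cdx1 at 77.6 and 71.1.

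Fetal liver also expresses Fabp1, and liver genes were present. All 8 liver markers were detected, with a summed TPM of 559 in replicate 1 and 385 in replicate 2. Trf, the transferrin gene, was at 236 and 160, Afp (alpha-fetoprotein) at 190 and 143, Alb (albumin) at 66.7 and 42.5 and Ahsg (fetuin-A) at 32.7 and 16.6. The fibrinogen genes were at 11.3 and 6.77 (Fga), 7.82 and 5.87 (Fgb) and 8.85 and 5.39 (Fgg), and Apoh was at 6.21 and 4.42. Replicate 1 was higher for all 8, as it was for Fabp1 and Fabp2. The summed liver markers were 1.45 times higher in replicate 1, whereas Fabp1 was 1.15 times higher. Most of that sum was Trf and Afp in both libraries. Fabp1 was 33.2 and 45.1 times Alb. The part of liver RNA in the Fabp1 level was not tested. Pancreatic acinar markers were higher in replicate 1 too, by more: their summed TPM was 4286 and 1527, and Ctrb1, Cpa1 and Cela2a were at 2585 and 949.8, 525 and 223, and 476 and 111, with Prss2 at 140 and 37.2 and Pnlip below 1 in both libraries (0.36 and 0.18).

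Fabp6, the ileal carrier of bile acids (ENSMUSG00000020405.4, chromosome 11, 43596049 to 43601540), was near the limit of what was counted. It had 9 and 11 counts, a TPM of 0.99 in replicate 1 and 1.04 in replicate 2. The exact Poisson 95% intervals were 0.452 to 1.88 and 0.518 to 1.86, so whether it passed a TPM of 1 was not decided at this depth. Such intervals cover counting error only, since no molecular identifiers are recorded in the sources used here. Within a library Fabp1 was 2235 and 1845 times and Fabp2 682 and 527 times Fabp6.

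The other genes of bile acid handling, a list not limited to the ileum, were split. Of 11 on the list, 8 were detected. Nr1h4, which encodes the bile acid receptor FXR, was at 48.1 and 46.2, and Slc51a, the alpha subunit of the basolateral bile acid exporter, at 84.8 and 79.35, with its beta subunit Slc51b at 9.12 and 7.55. Slc10a2, the apical bile acid importer of ileum, was at 0.87 and 0.70, and Slc10a1, the importer of liver, at 0.32 and 0.27. Fgf15, the hormone that FXR induces in ileum, was at 0.02 and 0.19, from 1 and 9 counts. Slc10a2, Slc10a1 and Fgf15 were the 3 genes of the list not detected, and the receptor and the exporter were well above them in both libraries. Nr0b2, the FXR-induced repressor SHP, was at 6.75 and 6.31, and the bile acid receptor gene Gpbar1 at 2.61 and 2.79. The export pumps were at 19.9 and 13.6 (Abcc2), 2.17 and 1.25 (Abcc3) and 2.22 and 1.44 (Abcb11). Of 5 proximal small intestine markers all were detected, led by Apoa4 at 695 and 482, Slc40a1 at 118 and 126 and Gata4 at 36.7 and 35.6. The rest of that list was lower, with Cybrd1 at 5.67 and 5.53 and Pdx1 at 2.66 and 2.5. Gut region was not tested.

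Fabp5, the epidermal-type carrier (ENSMUSG00000027533.10, chromosome 3, 10012548 to 10016607), was the highest member outside the gut pair at 241 and 202, from 5297 and 5146 counts. It was 2.79 and 2.08 times Fabp4 and 47.9 and 47.7 times Fabp3. Keratinocyte markers, of the cells Fabp5 is best known from, summed to 15.2 and 17.3 TPM over 6 genes, of which 3 were detected. Krt14 was at 7.18 and 8.05, Krt10 at 4.81 and 6.11 and Krtdap at 2.34 and 1.57, with Krt5 (0.21 and 0.73) and Krt1 (0.52 and 0.58) below 1.

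Fabp4, the carrier of fat cells, capillary endothelium and macrophages (ENSMUSG00000062515.3, chromosome 3, 10204088 to 10208576), was at 86.5 and 96.9, from 1743 and 2260 counts. Replicate 2 was the higher library, unlike for Fabp1, Fabp2 and Fabp5. Of 7 adipocyte markers only Pnpla2 (31.4 and 29.0) and Cidec (10.6 and 9.85) were detected, both of which other cells also express. The defining fat cell genes were at or near 0: Lep and Cfd had no counts in either library, Adipoq was at 0 and 0.08, Plin1 at 0.12 and 0.02 and Retn at 0.22 and 0.09. All 9 capillary endothelium markers were detected, led by Pecam1 at 38.6 and 41.3, Gpihbp1, which anchors lipoprotein lipase in capillaries, at 24.7 and 24.0 and Cdh5 at 21.4 and 21.1. Fabp4 was 2.24 and 2.34 times Pecam1. All 8 macrophage markers were detected too, led by Lyz2 at 91.3 and 84.7, C1qb at 57.2 and 56.3 and C1qa at 48.7 and 41.9. These bulk libraries do not assign Fabp4 to either cell type.

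Fabp7, the carrier of glia and neural crest derivatives (ENSMUSG00000019874.7, chromosome 10, 57784881 to 57788450), was at 37.1 and 45.65, from 630 and 901 counts. Of 8 enteric glia and neural crest markers 5 were detected. Ednrb, the endothelin receptor of migrating crest cells, was at 96.4 and 117, Erbb3 at 25.4 and 26.3 and the lineage factor Sox10 at 6.53 and 6.70, while Gfap, a marker of mature glia, was at 0.16 and 0.31. The summed markers were at 136 and 159 TPM, higher in replicate 2 like Fabp7. Fabp7 was 5.69 and 6.81 times Sox10.

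Fabp3, the muscle carrier (ENSMUSG00000028773.8, chromosome 4, 130308595 to 130315463), was at 5.04 and 4.23, from 87.4 and 85.4 counts. The 10 striated muscle markers were mixed: Myl7 at 56.7 and 61.6, Actc1 at 27.9 and 33.6 and Tnnt2 at 14.5 and 13.75 led them, and 5 were detected in both libraries. The other detected genes were Ckm, the muscle creatine kinase, at 3.81 and 6.04 and the troponin gene Tnni3 at 3.0 and 1.89. Of the 5 not detected, Mb (myoglobin) was at 0.26 and 0.34, Myl2 at 0.37 and 0.51, Myl3 at 0.32 and 0.38, Myod1 at 0.02 and 0.20 and Actn2 at 0.73 and 2.22. The Fabp3 value is uncertain for a further reason. Its locus overlaps Zcchc17 on the opposite strand, at 49.99 and 54.99 TPM, and the strand setting of the counting is not known from these sources. Fabp2 overlaps an antisense gene too, 4933405D12Rik, but that gene was at 0.16 and 0.17 TPM.

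Copies of the genes were searched by words of 31 bases in all other M21 transcripts on both strands. Fabp1, Fabp2, Fabp6 and Fabp7 shared no word with another gene. Fabp3 shared 50.1% of its words, of which the processed pseudogene Fabp3-ps1 held 35.2% of Fabp3's words and Zcchc17 6.43%. Fabp5 shared 9.27%, chiefly with processed pseudogenes, the closest being Gm6166 with 7.24%. Fabp4 shared 0.288%. The deposited counts of Fabp3 and Fabp5 were not whole numbers (87.39 and 85.41, and 5296.54 and 5146.18), whereas those of the other 5 members were whole, so the fractional counts fell on the 2 members with the largest shares of shared words. Fabp3-ps1 received 6.61 and 19.6 counts and Gm6166 17.1 and 26.6. The counts of Zcchc17, which overlaps Fabp3, were whole numbers, at 1504 and 1792.

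Nearly all output came from the spliced 4-exon transcripts. Fabp1, Fabp2, Fabp3 and Fabp6 have 1 transcript each in the deposited tables. Fabp4-201 held 98.7% and 98.8% of Fabp4 output by the authors' deposited percentages, and the single-exon retained-intron transcript Fabp4-202 of 4231 bases held 1.31% and 1.16%. Fabp5-201 held 98.7% and 98.8%, and Fabp5-202, which keeps introns 1 and 2 in 3238 bases, 1.26% and 1.16%. In counts, which are not divided by length, the share of the retained-intron models was 6.46% and 5.72% for Fabp4-202 and 4.31% and 3.98% for Fabp5-202. Fabp7-202 ends in an extended exon 3 and is annotated as coding. It held 3.88% and 2.96% of Fabp7 output, from 26.9 and 29.4 counts.

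Between the libraries the members moved in both directions by small amounts. The log2 ratio is log2((TPM of replicate 2 + 1)/(TPM of replicate 1 + 1)), and its median over 14986 detected genes was 0.02. No member differed by more than 1.5-fold, beside 2.23% of detected genes (1.47% lower and 0.754% higher in replicate 2). The ratio was -0.21 for Fabp1, -0.30 for Fabp2, -0.26 for Fabp5 and -0.21 for Fabp3, and 0.16 for Fabp4, 0.29 for Fabp7 and 0.04 for Fabp6. By exact binomial 95% intervals of the counts, Fabp1, Fabp2 and Fabp5 lay wholly below the median of detected genes and Fabp4 and Fabp7 wholly above it. This held for 5 of 6 detected members, beside 43.5% of detected genes (20.6% below and 22.9% above), and beside 52.8% of detected genes with at least 500 counts in both libraries, a depth these 5 members reach. In rank, 5.49% of detected genes had a lower ratio than Fabp2, 7.19% than Fabp5 and 10.5% than Fabp1, and 94.7% had a lower one than Fabp7 and 81.6% than Fabp4.

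**Figure D3:**
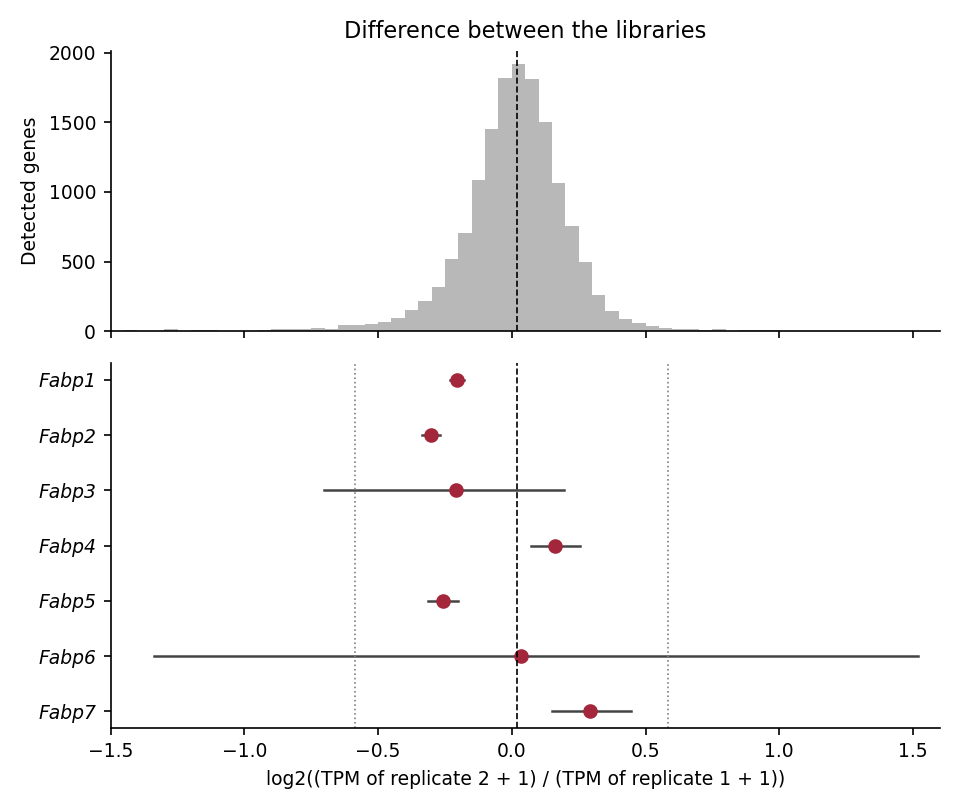
Upper panel: number of detected genes (vertical) by log2 ratio of replicate 2 to replicate 1 (horizontal), in bins of 0.05 between -1.5 and 1.5. Lower panel: the ratio of each member with its exact binomial 95% counting interval; the dashed line is the median of detected genes and dotted lines mark 1.5-fold. Fabp2 sits lowest at -0.30 and Fabp7 highest at 0.29, and the points of all members lie inside the dotted lines, while the intervals of Fabp3 and Fabp6 reach past them.

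The scale set the sign of some of these ratios. Scaled by the total of the ERCC spike-ins, synthetic RNAs that took 2.16% and 1.76% of counts, the median ratio of all detected genes moved to 0.29, and Fabp1, Fabp3 and Fabp5 turned to 0.06, 0.02 and 0.01. On that scale Fabp2 was at -0.03, Fabp4 at 0.43, Fabp6 at 0.31 and Fabp7 at 0.57. Each ratio was also taken relative to the median of detected genes on the same scale. By that measure Fabp1 lay between -0.23 and -0.22 under all 6 scalings and Fabp2 at -0.32. Fabp5 lay between -0.28 and -0.27, Fabp3 between -0.28 and -0.22, Fabp4 between 0.13 and 0.15 and Fabp7 at 0.27. Fabp6, with its few counts, lay between 0.01 and 0.04. A scaling by 1 factor per library moves a gene and the median together, so these narrow ranges follow from the construction and are no sign of stability.

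The lists set beside the family differed less between the libraries than liver and pancreas markers. Triglyceride and chylomicron genes, which use the fatty acids that Fabp1 and Fabp2 carry, had a median log2 ratio of -0.17 over 13 detected genes of 13, and enterocyte markers of -0.14 over 8. Apoa1 (-0.27) and Apoa4 (-0.53) are on both of these lists. Fatty acid uptake and activation genes had a median of -0.05 (14 of 15 detected), fatty acid oxidation genes of -0.002 (14 of 15) and gut epithelial regulators of -0.02. Capillary endothelium, macrophage and glial markers had medians of -0.02, -0.002 and 0.05. Liver markers were at -0.59 and pancreatic acinar markers at -1.45, the latter over 6 detected genes. The detected members had a median of -0.21. The part of tissue makeup in the members' ratios was not tested.

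**Figure D4:**
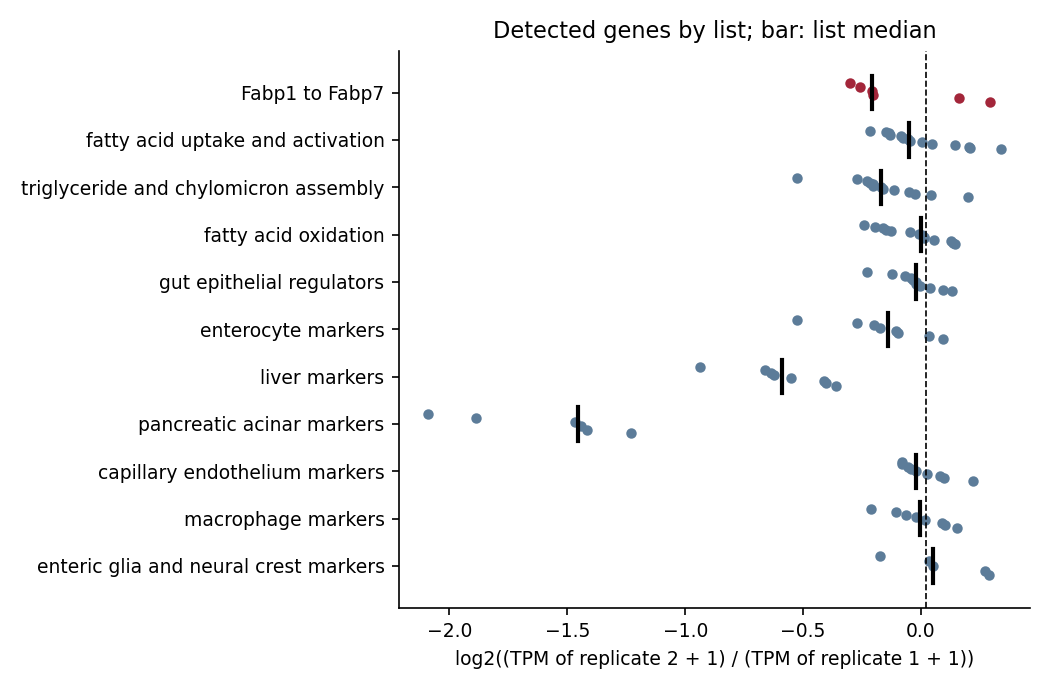
Log2 ratio of replicate 2 to replicate 1 (horizontal) for each detected gene (points) of Fabp1 to Fabp7 and 10 other lists (vertical); thick bars are list medians and the dashed line is the median of all detected genes. Pancreatic acinar (-1.45) and liver (-0.59) markers lie farthest to the left, and the members (-0.21) lie on both sides of the dashed line.

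Genes that work beside the family were expressed at very different levels. Among fatty acid uptake and activation genes the median was 20.9 TPM over 15 genes. Dbi, the acyl-CoA binding protein, led at 1253 and 1190, followed by Got2 at 189 and 195 and the acyl-CoA synthetase Acsl5 at 184 and 167, with Slc27a5, the liver-type transporter, below 1 (0.69 and 0.36). The triglyceride and chylomicron list had a median of 129 TPM, led by Apoa1, Apoa4 and Mttp, the triglyceride transfer protein, at 203 and 188. The fatty acid oxidation list had a median of 87.5 TPM, led by Acaa2 at 396 and 362, Hadhb at 205 and 225 and Acadl at 190 and 190, with Cpt1b, the muscle-type carnitine transferase, below 1 (0.39 and 0.59). The median of all protein-coding genes was 5.07 TPM, or 17.8 TPM among those detected.

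All 9 lipid-sensing nuclear receptors were detected, with a median of 14.0 TPM. Among the PPARs, which bind fatty acids, Ppara was at 16.1 and 15.1, Pparg at 13.0 and 15.1 and Ppard at 1.57 and 1.46. The RXR partners were at 36.6 and 34.2 (Rxrb), 9.71 and 10.4 (Rxra) and 1.84 and 1.17 (Rxrg). The oxysterol receptors were at 57.4 and 55.8 (Nr1h2) and 11.9 and 10.8 (Nr1h3). Pparg was thus present at a level close to Ppara, while the defining fat cell genes listed with Fabp4 were at or near 0.

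Relatives in the same protein superfamily were also counted. Of 9 relatives fixed, Rbp5 was not analysed here and 5 of the other 8 were detected. Rbp2, the retinol carrier of absorptive cells, was highest at 306 and 244, a level between Fabp2 and Fabp5, and Fabp2 was 2.21 and 2.25 times Rbp2. The retinoic acid carriers Crabp1 and Crabp2 were at 13.7 and 14.0 and at 5.82 and 6.91, and Rbp7 was at 1.52 and 1.38. Pmp2 (myelin), Fabp9 (testis) and Fabp12 were at the floor, with no counts for the first 2 and 1 count in each library for Fabp12. A floor of 3 counts in a library corresponds to a TPM of 0.0956 and 0.0821 for Pmp2 and 0.265 and 0.227 for Fabp9.

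These relatives without expression above the floor are neighbours of expressed ones. Fabp5, Pmp2, Fabp9, Fabp4 and Fabp12 lie in that order within 289 kb of chromosome 3 (10012548 to 10301183), among 12 annotated genes. Fabp5 and Fabp4 stood at 221 and 91.7 TPM, while Pmp2 and Fabp9, which lie between them, had no counts in either library. None of the 7 other annotated genes in this interval exceeded a TPM of 2.12 in either library. Fabp2 lies elsewhere on the same chromosome.

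**Figure D5:**
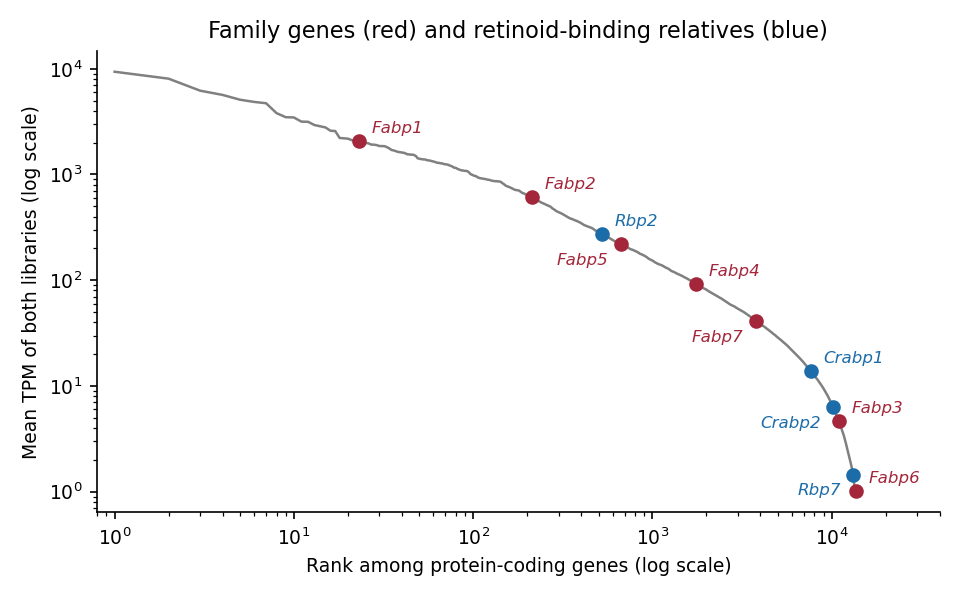
Mean TPM of both libraries (vertical, log scale) against rank among protein-coding genes (horizontal, log scale; grey line). Fabp1 to Fabp7 (red) run from rank 23 (Fabp1) to rank 13644 (Fabp6), and of the relatives Rbp2, Crabp1, Crabp2 and Rbp7 (blue), Rbp2 lies between Fabp2 and Fabp5.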

How the data were processed

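Total RNA of 2 pools of E15.5 mouse intestine was measured. By the labels' protocols a mirVana kit gave the RNA, 10 ng entered each library, fragments over 200 nucleotides were kept and ERCC spike-ins were added; the SMARTer Ultra Low kit manual is among those listed. The labels number the pools as biological replicates 1 and 2.

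A readme among the deposited files names mm10 and GENCODE M4. The authors' deposited tables hold expected counts per gene and transcript (estimated counts that need not be whole), TPM as a maximum-likelihood and a posterior mean estimate, FPKM, and the percent of a gene's output on each transcript, per the file headers. The deposited bounds of a TPM interval were treated as a score and not used. Quantifier, aligner, ribosomal RNA treatment and strand setting: not given in the sources used here. Totals were 34406872 and 40669822 estimated counts, so 3 counts on 1 kilobase equal a TPM of 0.125 and 0.107.

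GENCODE M21, also on this assembly (GRCm38), gave symbols, gene models and coordinates for 42462 gene entries (98.0%); transcript lengths matched the deposited ones for all 10 member transcripts. Promoters came from RefSeq on GRCm38.p6 for 5 of 7 members. Intervals are exact Poisson or exact binomial at 95% on counts rounded to whole numbers and cover counting error only. With 1 group of 2 libraries no test was made, and 2 libraries give no pattern by which to name similar genes. TMM factors (edgeR 4.0.16) and DESeq2 1.42.0 size factors in R 4.3.3 served as alternative scalings only; Python 3.11.15, scipy 1.17.1 and Biopython 1.88 did the rest. The ratio and its interval were tested on simulated counts that held counting error only. That setting checks the computation and says nothing about spread between pools.

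The members and the 17 gene lists (159 entries, 150 of 151 different genes matched) were chosen with earlier results of these data known, and so were the 7 motifs and the word search. Genes were named by rule: all members, all relatives, nuclear receptors, bile acid genes and liver markers, and of each other list the 3 highest, up to 2 below a TPM of 1 and up to 2 over 1.5-fold apart between libraries. All striated muscle, adipocyte and proximal small intestine markers were named beyond that rule, after their values were seen. The values of 1 relative are not reported here. The neighbours of Fabp5 and Fabp4, the copies of Fabp3 and Fabp5 and ratios to Lgals4, Epcam, Apoa1, Alb, Pecam1, Sox10 and Rbp2 were added after values were seen. Nothing records that the pools differ by more than their embryos, so the spread may be partly technical.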

Additional observations from a re-analysis of the deposited data

How the results depend on the processing

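Of 33 values recomputed for the main results under another unit, limit or estimate, 24 stayed within 1 SD of the libraries or within 1.5 times the count, and 9 moved. Some of the 24 could hardly move. The sum of transcript TPM equals the gene level, at 3038, and 5 or 7 members detected against 6 stay within 1.5 times. The count of 24 is therefore no measure of stability. Leaving out either library was also run, but of 2 libraries each lies within 1 SD of their mean by construction, so for levels, ratios and shares this says nothing about stability. The summed member level was 2101 as FPKM, a unit with another total. Without division by length, the ratio of Fabp1 to Fabp2 was 1.78, of Fabp2 to Fabp6 1381, of Fabp1 to Fabp6 2442, of Fabp5 to Fabp3 60.4 and of Fabp4 to Fabp7 2.64; lengths differ between the genes, which is the construction of that alternative. The posterior mean TPM put Fabp5 at 47.5 times Fabp3. As a share of counts, Fabp4-201 held 93.9% and Fabp5-201 95.9%. The count of members detected was 7 with a TPM limit of 0.5, with posterior mean TPM or without replicate 1, and 5 with a limit of 5. The share of detected genes past 1.5-fold between libraries was 3.71% with a pseudocount of 0.1 and 6.23% on the spike-in scale. No member passed 1.5-fold under any of the 6 scalings. Depth limits Fabp6, with 9 and 11 counts, and Fabp3. No paired analysis was possible because the libraries form 1 group.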

Other observations

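Ratios between members within a library differed in how far apart the libraries lay. Fabp2 to Fabp5 was 2.80 and 2.72 and Fabp1 to Fabp5 9.17 and 9.51. Fabp1 to Fabp7 was 59.6 and 42.0, Fabp2 to Fabp7 18.2 and 12.0 and Fabp5 to Fabp7 6.50 and 4.42. Fabp1 to Fabp4 was 25.6 and 19.8 and Fabp2 to Fabp4 7.81 and 5.66. Fabp4 to Fabp7, both higher in replicate 2, was 2.33 and 2.12. Fabp5 to Fabp3 was 47.9 and 47.7, but Fabp3 rests on 87.4 and 85.4 counts and its log2 ratio between the libraries has a 95% counting interval from -0.70 to 0.19, so nothing is read from that closeness. All but the last 2 pairs were chosen after the values were seen, and with 2 libraries the pattern was not tested.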
